A study of Mus musculus with 8 samples.

Results

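H3.3-HA peaks were examined at the 8 mouse genes that encode the 6 GATA factors (Gata1 to Gata6) and the 2 Friend of GATA (FOG) cofactors, Zfpm1 (FOG1) and Zfpm2 (FOG2), of 22367 protein-coding genes in all. A gene's window ran from 10 kb before its transcription start site (TSS) to 200 bp past the gene end, and every peak that reached into a window, or into the 100 kb flank on either side of it, was taken. The study had 4 conditions, with 1 native H3.3-HA ChIP library and 1 input DNA library each: Hira-null at day 15, WT at day 15, Hira-null at day 0 and WT at day 0. WT cells were the W9.5 mouse embryonic stem cell (mESC) line and Hira-null cells were a single mutant clone, Clone104, and both carry HA-tagged H3.3. Day 0 cells were undifferentiated mESCs, and day 15 cells came from embryoid bodies made in hanging drops and differentiated towards cardiomyocytes. With 1 ChIP library per condition there is no replicate error, so all differences below are described and none was tested.

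GATA factors are zinc finger proteins that bind DNA sites built around the letters GATA. Gata4, Gata5 and Gata6 act in heart and endoderm, Gata1 and Gata2 in blood and its progenitors, and Gata3 in T cells and in several developing organs. FOG proteins do not need to touch DNA themselves. They bind a zinc finger of the GATA factor and help it to activate or repress its genes, FOG1 in red blood cells and platelets and FOG2 in the heart. H3.3 is a histone variant that can be laid down at any phase of the cell cycle. The chaperone HIRA places it at many active genes and regulatory sites.

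Sequence under 6 of the peaks is shown first, as the 300 bp around each midpoint. They are the strongest WT day 15 peak of Gata4, the Hira-null day 15 peak of Gata4 with the longest overlap with a WT peak in the window, 3 peaks rich in GATA letters upstream of Gata4, upstream of Gata3 and in an intron of Zfpm1, and the only window peak of Zfpm2. Capitals mark each match, on either strand, to the hexamers AGATAA and (with another last letter) AGATAG, or to the same hexamers with T in the first place, TGATAA and (likewise) TGATAG. Letters run 5′ to 3′ on the plus strand of mm9 (NCBIM37). The 6 were picked after their values were seen.
Gata4 strongest WT day 15 (chr14:63851101-63851400): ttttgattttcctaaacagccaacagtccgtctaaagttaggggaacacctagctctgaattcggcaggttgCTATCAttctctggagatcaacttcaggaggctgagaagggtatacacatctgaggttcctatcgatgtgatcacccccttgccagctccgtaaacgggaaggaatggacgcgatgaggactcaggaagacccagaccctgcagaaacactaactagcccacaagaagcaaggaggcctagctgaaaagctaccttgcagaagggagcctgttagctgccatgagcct
Gata4 shared (chr14:63834558-63834857): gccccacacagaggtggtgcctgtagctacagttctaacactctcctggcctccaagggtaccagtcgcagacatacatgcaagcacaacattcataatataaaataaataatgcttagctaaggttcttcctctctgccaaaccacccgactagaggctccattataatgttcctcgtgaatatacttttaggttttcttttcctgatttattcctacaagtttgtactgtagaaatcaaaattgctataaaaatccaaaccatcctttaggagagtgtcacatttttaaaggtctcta
Gata4 upstream WT day 15 (chr14:63902554-63902853): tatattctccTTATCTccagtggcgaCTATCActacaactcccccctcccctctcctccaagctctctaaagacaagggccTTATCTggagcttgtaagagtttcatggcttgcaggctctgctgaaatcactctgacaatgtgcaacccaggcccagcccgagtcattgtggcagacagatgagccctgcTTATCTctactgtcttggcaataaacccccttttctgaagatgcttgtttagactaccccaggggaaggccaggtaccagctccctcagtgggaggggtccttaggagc
Gata3 upstream WT day 15 (chr2:9824365-9824664): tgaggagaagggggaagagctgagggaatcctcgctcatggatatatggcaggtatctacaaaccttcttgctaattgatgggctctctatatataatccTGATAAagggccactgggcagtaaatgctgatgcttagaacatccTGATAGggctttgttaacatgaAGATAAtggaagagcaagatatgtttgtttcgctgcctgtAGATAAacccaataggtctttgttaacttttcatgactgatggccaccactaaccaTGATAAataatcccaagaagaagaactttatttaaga
Zfpm1 intron WT day 15 (chr8:124846580-124846879): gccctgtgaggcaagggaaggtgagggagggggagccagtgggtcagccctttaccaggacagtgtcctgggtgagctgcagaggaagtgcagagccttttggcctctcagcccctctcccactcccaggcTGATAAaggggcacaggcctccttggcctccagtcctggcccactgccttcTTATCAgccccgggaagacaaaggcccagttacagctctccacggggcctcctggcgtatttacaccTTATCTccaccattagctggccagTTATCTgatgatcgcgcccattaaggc
Zfpm2 Hira-null day 15 (chr15:40652630-40652929): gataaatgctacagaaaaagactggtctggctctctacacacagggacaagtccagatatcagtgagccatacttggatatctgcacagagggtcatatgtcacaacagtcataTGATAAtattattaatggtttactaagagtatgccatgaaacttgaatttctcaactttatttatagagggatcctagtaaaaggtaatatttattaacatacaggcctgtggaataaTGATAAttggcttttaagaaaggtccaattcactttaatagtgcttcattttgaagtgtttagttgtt

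In the 300 bp around the midpoint, 53.3% of all Hira-null day 15 peaks and 55.2% of all WT day 15 peaks held at least 1 of these hexamers, and 6.61% and 1.98% held at least 4. Of the Hira-null peaks shown, the Zfpm2 one held 2 and the shared Gata4 one held 0, while the WT peak that it overlaps, centred elsewhere, held 1. Of the WT peaks shown, the Gata3 one held 5, the Gata4 upstream one and the Zfpm1 intron one held 4 each and the strongest Gata4 one held 1. A match of letters is a description of the sequence and not evidence of binding.

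H3.3-HA peaks at these genes were found mostly at day 15 and mostly at Gata4, Gata6 and Zfpm1. In the gene windows there were 7 Hira-null and 18 WT peaks at day 15, and 1 Hira-null and 0 WT peaks at day 0. The order at day 15 depends on list length, since with the 7332 highest scores of each list there were 7 Hira-null and 4 WT window peaks. At least 1 window peak lay at 2 of the 8 genes in Hira-null day 15 (13.3% of all protein-coding genes), at 3 in WT day 15 (37.1% of all), at 1 in Hira-null day 0 (18.9% of all) and at 0 in WT day 0 (33.6% of all). The 3 members with WT day 15 peaks are therefore close to the share of all genes. No window peak of any list was found at Gata5, Gata1, Gata2 or Gata3, and 45.5% of all genes likewise had none.

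**Figure D1:**
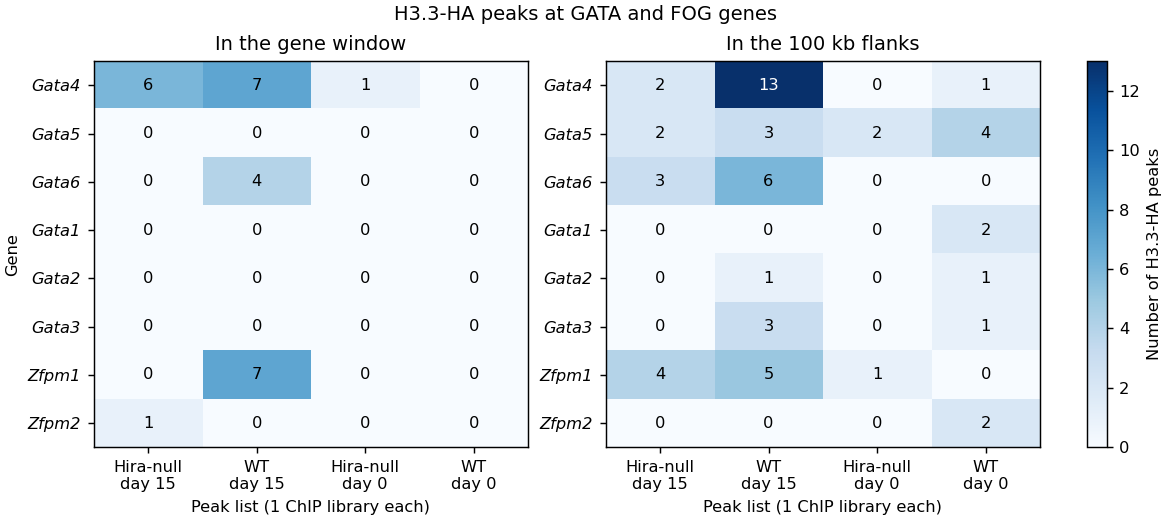
Number of H3.3-HA peaks at each GATA and FOG gene (rows) in each peak list (columns), in the gene window (left) and in the 100 kb flanks (right); colour follows the printed number. Gata4 has 6 Hira-null and 7 WT window peaks at day 15, Gata6 has 0 and 4, and Zfpm1 has 0 and 7.

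The peak lists differ in size, and every count carries this. The lists held 7332 peaks in Hira-null day 15, 27272 in WT day 15, 17706 in Hira-null day 0 and 22730 in WT day 0, and read depth per library is unknown. The score of a peak is that of the authors' caller, −10 times the log10 of its p-value, with a lowest value of 50 in every list, and scores were ranked only within a list. Over the joint 767 kb of the 8 windows, density was 0.913 Hira-null and 2.35 WT peaks per 100 kb at day 15, against 0.276 and 1.03 over the genome. At day 0 it was 0.130 Hira-null and 0 WT peaks per 100 kb, against 0.667 and 0.856 over the genome. Of 6 embryonic stem cell marker genes, 1 had a window peak in Hira-null day 15, 1 in WT day 15, 3 in Hira-null day 0 and 6 in WT day 0. Of 6 cardiomyocyte markers only Ryr2, the cardiac calcium release channel, had one, in all 4 lists, while Myh6, Myh7, Tnnt2, Actc1 and Nkx2-5 had none. The Ryr2 window is 564 kb long, against 13.1 to 35.2 kb for the other markers of this group. A peak is not a level of RNA, and in these bulk cultures fewer cells with H3.3 at a site and less H3.3 per cell cannot be told apart.

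Gata4, which encodes a core transcription factor of the developing heart, carried peaks in both genotypes at day 15. The gene lies on the minus strand of chromosome 14 at chr14:63817759-63890529 (mm9). Its window held 6 Hira-null and 7 WT peaks at day 15, and 1 Hira-null and 0 WT peaks at day 0. At least 6 Hira-null day 15 peaks were found in the windows of only 0.228% of all genes, and at least 7 WT day 15 peaks in 3.44%. Peaks were counted as called and close neighbours were not merged, so 6 peaks need not be 6 separate sites. Per kb of window, 2.45% of all genes were as dense as Gata4 in Hira-null day 15 and 10.5% in WT day 15. No other gene had the same counts as Gata4 in all 4 lists.

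The annotated Gata4 transcripts start at several places, and distances from the TSS are from the most upstream one. Gata4-001, Gata4-002 and Gata4-201 start about 26.4 kb inside the gene, and the short Gata4-003 starts 58.1 kb inside. In Hira-null day 15, 5 of the 6 window peaks lay in introns. They were chr14:63824263-63824986 with a score of 107, chr14:63825046-63825520 with 50.5, chr14:63834394-63835020 with 67.8, chr14:63835724-63836090 with 53.9 and chr14:63855153-63856068 with 71.9. The remaining Hira-null peak, chr14:63899928-63900487 with a score of 64.2, had its midpoint 9.68 kb upstream of the TSS. Only the first of these stood above the middle of its list, with 58.2% of Hira-null day 15 peaks scoring lower.

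In WT day 15, 6 of the 7 Gata4 window peaks lay in introns. The strongest, chr14:63850479-63852021, was 1543 bp wide with a score of 182, above 86.7% of its list, and lay 12.8 kb past the start of Gata4-001. Next to it lay chr14:63853868-63855170 with a score of 107, and nearer that start chr14:63861512-63862025 with 54.8, at 2.32 kb past it. These intron peaks fall in the part of the gene that the main transcripts read first. Further in lay chr14:63827757-63828472 with a score of 62.5 and chr14:63834421-63835238 with 71.0. Close to the upstream start lay chr14:63880695-63881372 with a score of 51.6, and 2.89 kb upstream of it chr14:63892978-63893863 with 65.7. The nearest edge of this last peak was 2.45 kb from the TSS, the closest that any peak came to a member's most upstream TSS.

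At Gata4, 4 of the 6 Hira-null day 15 window peaks had no WT peak on them, and in the whole Hira-null day 15 list 69.2% had none. Of the 7 WT day 15 window peaks, 5 had no Hira-null peak on them, and in the whole WT day 15 list 91.9% had none. Unshared peaks at Gata4 were thus no more frequent than over the lists. Among the 5 was the strongest, whose nearest Hira-null day 15 peak was 3.13 kb away. One overlap was broad, 600 bp between the Hira-null peak chr14:63834394-63835020 and the WT peak chr14:63834421-63835238, and the other was an edge of 18 bp. The single day 0 peak in the window was a Hira-null one, chr14:63852968-63854535, 1568 bp wide with a score of 51.1, and only 1.31% of its list scored lower. It overlapped the WT day 15 peak at chr14:63853868-63855170 by 668 bp. With lists of equal length, made by keeping the 7332 highest scores of each, Gata4 had 6 Hira-null and 1 WT window peaks at day 15, so the order of the genotypes turned round. Of its peaks, 1 Hira-null and 2 WT ones had scores of 100 or more.

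The flanks of Gata4 held 2 Hira-null and 13 WT peaks at day 15, and 0 Hira-null and 1 WT peaks at day 0. Both Hira-null day 15 flank peaks lay on WT ones. One was chr14:63813753-63814691 with a score of 79.4, starting 3.07 kb past the gene end, under the WT peak chr14:63813654-63814765 with a score of 148, the strongest of the flank. The other, chr14:63763072-63763776 with a score of 75.3, overlapped a WT peak with a score of 97.1 in Ctsb, which encodes the lysosomal protease cathepsin B. Among the WT peaks, 5 lay upstream of Gata4 and 8 past its end, 3 of them in Fdft1, the squalene synthase gene. Beside the one with a score of 148 lay chr14:63814834-63815691 with a score of 77.2, the WT flank peak nearest to the gene end, 2.07 kb past it. The 3 in Fdft1 had scores of 113, 71.0 and 81.5, and a further peak in Ctsb had 72.4. None of these 5 had a Hira-null peak on it, as was so for 91.9% of the whole WT day 15 list. Of all 13 WT flank peaks of day 15, 11 had none. Upstream of the TSS, WT peaks lay at 12.2 kb with a score of 103, at 25.8 kb with 135, at 64.4 kb with 54.2, at 68.8 kb with 64.2 and at 70.4 kb with 125. There was no Hira-null day 15 flank peak on that side. With lists of equal length the Gata4 flanks held 2 Hira-null and 2 WT peaks at day 15. The only day 0 WT peak, chr14:63796944-63797603 with a score of 50.4, overlapped the WT day 15 peak chr14:63797132-63798082 by 472 bp. Window and flanks together held 2.83 Hira-null and 7.07 WT peaks per 100 kb at day 15, while the averages of chromosome 14 were 0.222 and 0.719.

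**Figure D2:**
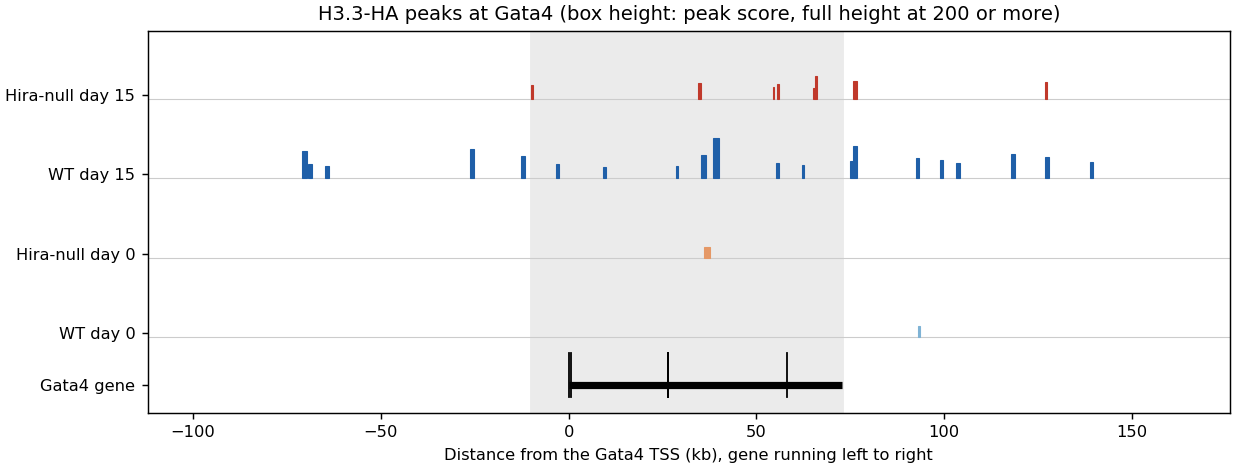
H3.3-HA peaks at Gata4 by distance from its most upstream TSS in kb; each box is a peak, with height following its score up to 200, grey marks the gene window, and upright lines on the gene mark transcript starts. At day 15 the window holds 6 Hira-null and 7 WT peaks, and the strongest WT peak, with a score of 182, lies 39.3 kb from that TSS, where the Hira-null day 15 row is empty.

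Gata6, which encodes a factor of heart, outflow tract and endoderm, had window peaks only in WT day 15. The gene lies on the plus strand of chromosome 18 at chr18:11052508-11085633. Its window held 0 Hira-null and 4 WT peaks at day 15, and 0 and 0 at day 0. A window with WT day 15 peaks and none in the other 3 lists was found for 11.2% of all genes, and at least 4 WT day 15 peaks for 8.96%. The same counts in all 4 lists were found at 110 other genes, of which Mtpn, Eri1 and Heatr6 have windows of the most similar length. This likeness is over 4 lists only and says nothing of a shared role.

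The 4 Gata6 peaks were of middling or low rank. Upstream lay chr18:11046118-11046821 with a score of 83.6, above 46.9% of its list, with its midpoint 6.04 kb from the TSS. The other 3 stood together in an intron, within a stretch of 3.62 kb. They were chr18:11072289-11073030 with a score of 68.7, chr18:11073604-11074769 with 91.6 and chr18:11075287-11075905 with 50.8. The middle one was the strongest of the 4, above 54.2% of its list. None of the 4 reached a score of 100 and none was among the 7332 highest scores of its list, so the difference between the genotypes in this window rests on peaks below those limits.

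Hira-null day 15 peaks did lie near Gata6, just outside its window. One, chr18:11086515-11087026 with a score of 52.2, began 0.882 kb past the gene end, and another, chr18:11093502-11094309 with a score of 89.7, began 7.87 kb past it. Another, chr18:10968657-10969258, lay 83.6 kb upstream with a score of 69.0. The flanks thus held 3 Hira-null and 6 WT peaks at day 15, and 0 and 0 at day 0. None of the 3 and 6 overlapped, as was so for 69.2% of all Hira-null and 91.9% of all WT day 15 peaks. With lists of equal length the Gata6 flanks held 3 Hira-null and 1 WT peaks at day 15, so the order turned round. With a window that ran 20 kb upstream and 5 kb past the gene end, Gata6 had 1 Hira-null and 5 WT peaks at day 15.

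The strongest H3.3-HA peak near Gata6 lay past its end in WT day 15. It was chr18:11095468-11097721, 2254 bp wide with a score of 201, above 89.3% of its list, and began 9.84 kb past the gene end. The WT peak that followed, chr18:11115479-11116454, had a score of 111, and the 4 WT peaks upstream of the window had scores of 80.7, 66.8, 50.1 and 63.6 at 104, 48.2, 42.7 and 17.1 kb from the TSS. No peak in the Gata6 window or flanks lay on another annotated gene, leaving aside gene models over 1 Mb. At day 0 the nearest peak was 194 kb from the Gata6 TSS in Hira-null cells and 203 kb in WT cells, farther than at most genes, since 85.4% and 88.3% of all genes had one at least as near.

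**Figure D3:**
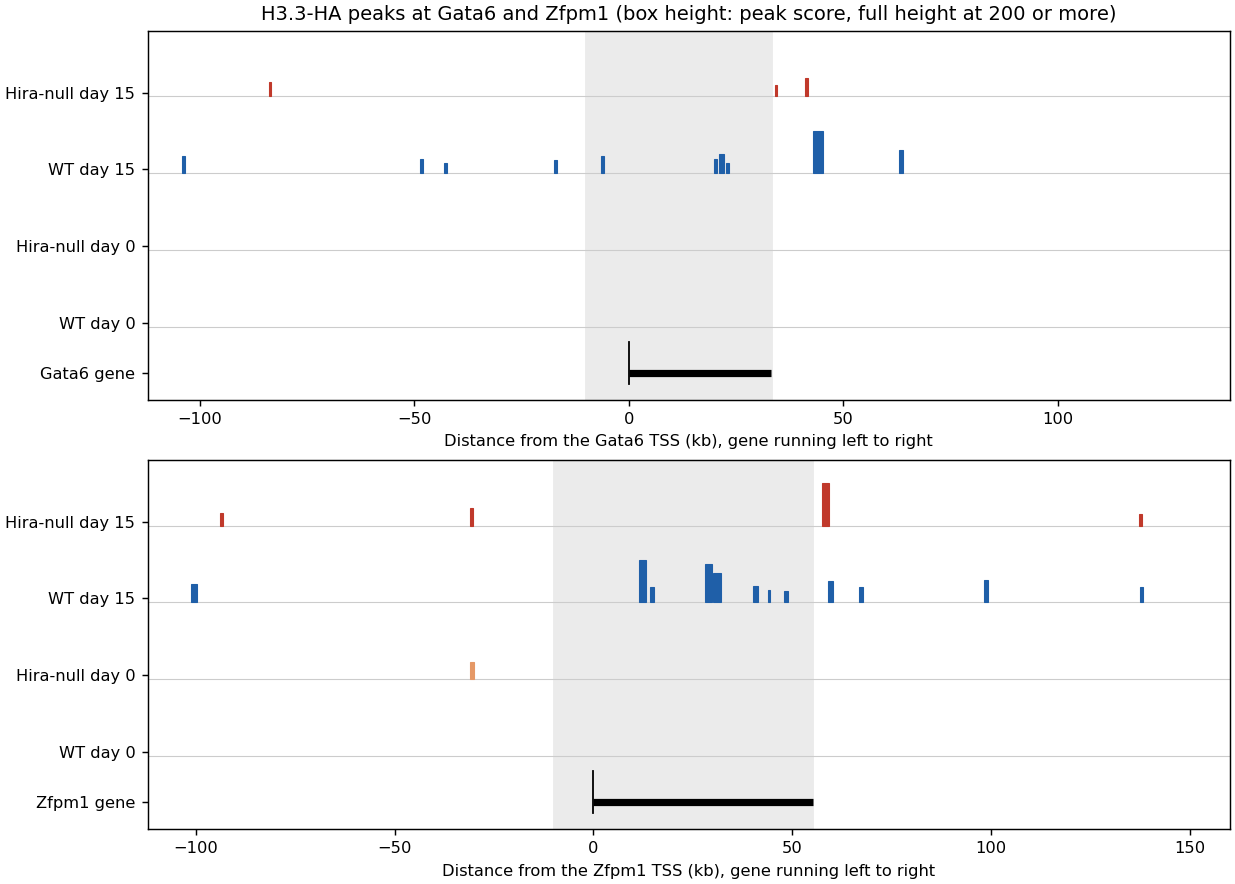
H3.3-HA peaks at Gata6 (top) and Zfpm1 (bottom) by distance from the TSS in kb; each box is a peak, with height following its score up to 200, and grey marks the gene window. Hira-null day 15 peaks lie outside both windows, at 34.3 kb and 41.4 kb past the Gata6 TSS and at 58.3 kb past the Zfpm1 TSS, while 4 and 7 WT day 15 peaks lie inside.

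Gata5, the remaining gene of the heart and endoderm group, had no window peak in any list. It lies on the minus strand at chr2:180059838-180069404. Its flanks held 2 Hira-null and 3 WT peaks at day 15, and 2 Hira-null and 4 WT peaks at day 0, all past the gene end and 47.3 kb or more from it. No peak of one genotype overlapped one of the other on the same day, the usual outcome for peaks of these lists, in which 69.2% of Hira-null and 91.9% of WT peaks at day 15, and 67.2% and 72.7% at day 0, were unshared. The strongest was the Hira-null day 0 peak chr2:179980555-179982324 with a score of 291, above 82.5% of its list, and the strongest WT peak of that day had a score of 125. At day 15 the highest scores were 77.7 in Hira-null and 100 in WT, and that WT peak lay in BC066135. One WT day 15 peak lay in Cables2 and overlapped a WT day 0 peak there by 386 bp.

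The blood and T cell group, Gata1, Gata2 and Gata3, had no window peak, and few peaks in its flanks. Gata1, the master factor of red blood cells, lies at chrX:7536386-7555197 on the minus strand. It had 0 flank peaks in Hira-null day 15, WT day 15 and Hira-null day 0 and 2 in WT day 0, with scores of 60.2, in the kinase gene Pim2, and 81.6, at 24.3 kb upstream. The X chromosome held few peaks in any case, 99 Hira-null and 24 WT at day 15 and 615 Hira-null and 157 WT at day 0, and the part of this in the Gata1 result was not tested. Per Mb this was 0.203 and 0.0131 times the other autosomes' value at day 15, and 0.535 and 0.103 times at day 0.

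Gata2, a factor of blood stem and progenitor cells, lies at chr6:88143885-88157024 on the plus strand. Its flanks held 0 Hira-null and 1 WT peaks at day 15, and 0 Hira-null and 1 WT peaks at day 0. The WT day 15 peak lay at the end of Rpn1, 88.6 kb upstream, with a score of 85.2. The WT day 0 peak, chr6:88165119-88166660, began 8.10 kb past the gene end and had a score of 137, above 81.6% of its list.

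Gata3 lies at chr2:9778705-9811661 on the minus strand, and its flanks held 0 Hira-null and 3 WT peaks at day 15, and 0 Hira-null and 1 WT peaks at day 0. The WT day 15 peak nearest to it, chr2:9824060-9824969, lay 12.9 kb upstream with a score of 77.7 and is the one printed above with 5 GATA hexamers. The others had scores of 56.1 at 23.0 kb and 62.1 at 77.1 kb, the farther one in Taf3, which encodes a subunit of the general transcription factor TFIID. The WT day 0 peak, chr2:9825443-9826431 with a score of 94.7, lay 14.3 kb upstream. The window rule decides the Gata3 result, since with 20 kb upstream it had 1 WT window peak at day 15 and 1 at day 0, and 0 in both Hira-null lists. The nearest Hira-null peak was 1261 kb from its TSS at day 15 and 354 kb at day 0.

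Of the cofactors, Zfpm1 (FOG1) carried the strongest window peaks of all members. The gene lies at chr8:124806039-124861146 on the plus strand, and its window held 0 Hira-null and 7 WT peaks at day 15, and 0 and 0 at day 0. At least 7 WT day 15 peaks were found at 3.44% of all genes, and the same counts in all 4 lists at 8 other genes, of which Rtn3, Actr3 and Nt5m have windows of the most similar length. All 7 lay in introns. The strongest, chr8:124817483-124819351, was 1869 bp wide with a score of 269, above 94.4% of its list, and lay 12.4 kb past the TSS. Another pair stood close together, chr8:124834193-124835896 with a score of 183 and chr8:124836158-124838075 with 140. The rest were chr8:124820283-124821206 with a score of 70.5, chr8:124846082-124847377 with 79.6, chr8:124849848-124850522 with 58.4 and chr8:124853909-124854934 with 55.4.

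At Zfpm1 the stricter lists left 0 Hira-null and 3 WT window peaks at day 15, whether by scores of 100 or more or by equal list length. With the window from 20 kb upstream to 5 kb past the gene end there were 1 Hira-null and 8 WT peaks. The added Hira-null peak was chr8:124863493-124865175, with a score of 313, above 89.0% of its list, and began 2.35 kb past the gene end. Its edge overlapped the WT peak chr8:124865123-124866212, with a score of 103, by 53 bp. In all, the flanks held 4 Hira-null and 5 WT peaks at day 15, and 1 Hira-null and 0 WT peaks at day 0, and with lists of equal length 4 and 0 at day 15 and 0 and 0 at day 0. The strongest WT flank peak, chr8:124904264-124905407 with a score of 105, lay in Zc3h18. A Hira-null peak 30.6 kb upstream, with a score of 84.3 at day 15, was matched by one with a score of 80.7 at day 0, which covered all of its 780 bp. WT day 15 peaks were dense on chromosome 8, at a mean of 2.56 times the density of the other autosomes, while Hira-null day 15 peaks were at 0.730 times. At day 0 these values were 1.41 in WT and 0.853 in Hira-null. The part of this in the Zfpm1 result was not tested.

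Zfpm2 (FOG2), the cofactor of Gata4 in the heart, had a single window peak, in Hira-null day 15. It is the longest member, at chr15:40486588-40936138 on the plus strand, with a window of 460 kb. The window held 1 Hira-null and 0 WT peaks at day 15, and 0 and 0 at day 0. A Hira-null peak and no WT peak at day 15 was found at 3.84% of all genes. In this long window the density was 0.218 Hira-null peaks per 100 kb, against 0.293 over chromosome 15 and 0.276 over the genome. The peak, chr15:40652405-40653153, was 749 bp wide with a score of 83.9, above 44.1% of its list. It lay in an intron, 166 kb from the first TSS and 69.5 kb past the start that its shorter transcripts share. The flanks held 0 and 0 peaks at day 15, and 0 Hira-null and 2 WT peaks at day 0, with scores of 138 at 27.5 kb upstream and 55.1 past the gene end. The nearest WT day 15 peak was 838 kb from the TSS.

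Across the members, the window peaks were not strong ones. In Hira-null day 15, 1 of 7 scored above the median of its list and the median of the 7 was 67.8, against 91.7 for the list. In WT day 15, 6 of 18 scored above the list median and their median was 70.8, against 86.7 for the list. By midpoint, 6 of the 7 Hira-null day 15 peaks and 16 of the 18 WT day 15 peaks lay in introns, the rest lay upstream, and none lay in an exon. The nearest peak to a TSS, over the 8 members, was at a median of 126 kb in Hira-null and 34.6 kb in WT at day 15, and 168 kb in Hira-null and 50.3 kb in WT at day 0. For all genes these medians were 121, 35.7, 59.8 and 34.9 kb in the same order.

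**Figure D4:**
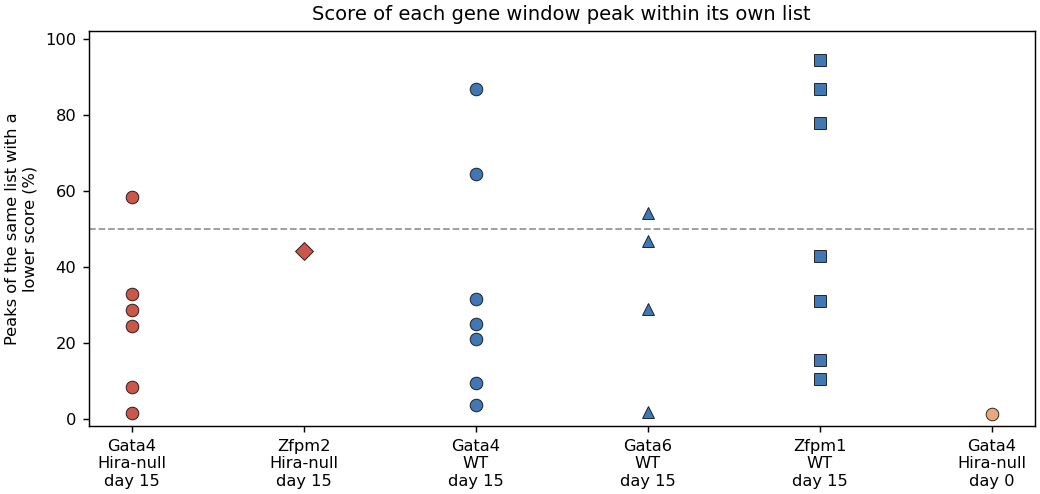
Each gene window peak placed within its own list, as the percent of peaks of that list with a lower score; each point is a peak, grouped by list and gene, and the dashed line is the middle of the list. The strongest Zfpm1 peak stands above 94.4% of WT day 15 peaks, and the Gata4 peak of Hira-null day 0 above 1.31% of its list.

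**Figure D5:**
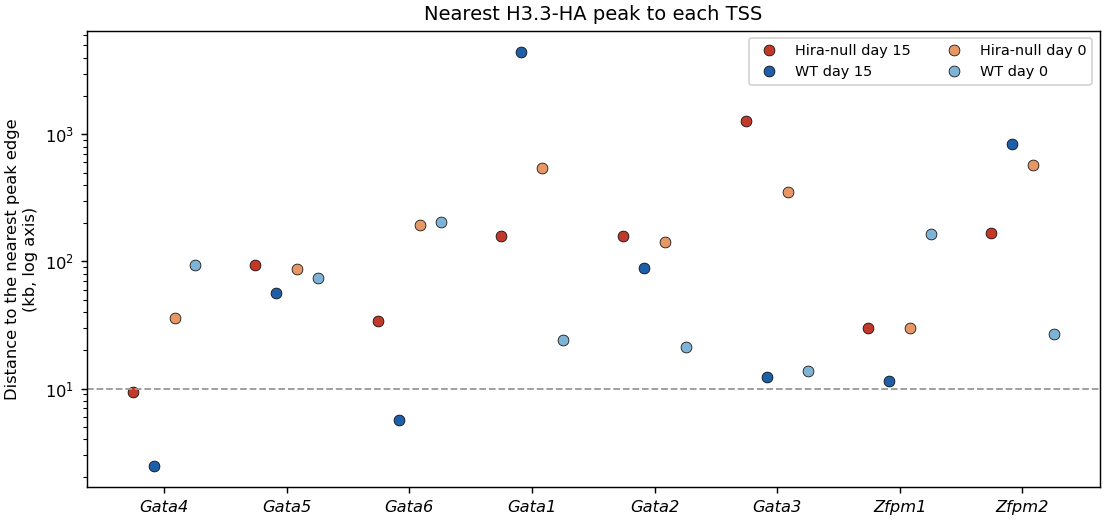
Distance in kb (log axis) from each TSS to the nearest edge of an H3.3-HA peak in each of the 4 lists; the dashed line is at 10 kb, the upstream reach of the gene window. Points below the line are Gata4 at 9.40 kb in Hira-null day 15 and 2.45 kb in WT day 15, and Gata6 at 5.69 kb in WT day 15.

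Of the 7 Hira-null day 15 window peaks, 5 had no WT peak on them, or 71.4% (95% exact Clopper-Pearson interval 29.0 to 96.3, counting error over peaks only), and the share of the whole list was 69.2%. These 5 lay at 2 of the 8 members, Gata4 and Zfpm2, and at least 1 such peak was found at 9.27% of all genes. Of the 18 WT day 15 window peaks, 16 had no Hira-null peak, or 88.9% (65.3 to 98.6), and the share of the whole list was 91.9%. They lay at 3 of the 8 members, and at least 1 such peak was found at 35.4% of all genes. Both intervals take peaks as independent, although 6 of the 7 Hira-null peaks lay at Gata4 and the 18 WT peaks at only 3 members. A WT peak with no Hira-null peak anywhere in the window was found at 2 members, Gata6 and Zfpm1, and at 27.7% of all genes. The shares of unshared peaks at these genes were thus near those of the whole lists in both directions.

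At day 0 the 1 Hira-null window peak, at Gata4, had no WT peak on it, and in the whole list 67.2% of Hira-null peaks had none. At least 1 such peak was found at 13.5% of all genes, and a Hira-null peak with no WT peak anywhere in the window at 6.32%. No member had a WT day 0 window peak, with or without a Hira-null one, whereas 29.5% of all genes had a WT peak without a Hira-null peak on it and 21.1% had a WT peak and no Hira-null peak in the window. In the whole WT day 0 list 72.7% of peaks had no Hira-null peak.

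The GATA letters themselves were spread unevenly over the members. At Zfpm1, 6 of the 7 WT day 15 window peaks held a hexamer, 14 in all, and 2 peaks held 4 each. At Gata4, 2 of the 6 Hira-null and 3 of the 7 WT window peaks of day 15 held one. At Gata6, 0 of the 4 WT day 15 window peaks did, although 5 of its 6 WT flank peaks did. Over all members, 3 of 7 Hira-null and 9 of 18 WT window peaks of day 15 held one, near the 53.3% and 55.2% of the whole lists. The letters TNAAGTG, a core of the site of the heart factor NKX2-5, were in 3 of the 7 Hira-null and 2 of the 18 WT window peaks at day 15, and in 14.4% and 18.2% of the lists. The search covered the 300 bp around each midpoint on both strands, and absence of the letters says only that they are not in that stretch.

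Genes that work with the GATA factors, or that they control, were counted in the same windows. Of all genes, 13.3% had a Hira-null and 37.1% a WT window peak at day 15, and 18.9% and 33.6% at day 0. Of 9 relatives with a GATA-type zinc finger, 3 had a Hira-null and 7 a WT peak at day 15, and 4 a Hira-null and 6 a WT peak at day 0. Rere, a nuclear receptor coregulator, had 3 Hira-null and 42 WT day 15 peaks, and 1 Hira-null and 8 WT day 0 peaks. Gatad2a, a subunit of the NuRD remodelling complex, had 0 Hira-null and 23 WT day 15 peaks, and 0 and 6 at day 0. It lies on chromosome 8, where WT peaks were dense. Mta3, another NuRD subunit, had 0 Hira-null and 1 WT peaks at day 15, and 3 and 5 at day 0, and Trps1, a repressor in cartilage and hair follicles, had 1 and 1 at day 15, and 1 and 3 at day 0.

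Among 12 partners of the heart GATA factors, 2 had a Hira-null and 7 a WT peak at day 15, and 2 a Hira-null and 3 a WT peak at day 0. The shares of all genes were 13.3% Hira-null and 37.1% WT at day 15, and 18.9% and 33.6% at day 0. Ep300, a histone acetyltransferase, had 1 Hira-null and 9 WT peaks at day 15, and 1 and 2 at day 0, and Smad1, a BMP signal carrier on chromosome 8, had 0 and 6 at day 15 and none at day 0. Of 10 partners of the blood GATA factors, 2 had a Hira-null and 6 a WT peak at day 15, and 3 a Hira-null and 4 a WT peak at day 0. The NuRD members of this list carried most of them. Chd4 had 7 Hira-null and 3 WT peaks at day 15, and 2 and 4 at day 0, and Rbbp4 had 4 and 6 at day 15, and 3 and 1 at day 0. Further heart and blood partners with a WT day 15 peak also lie on chromosome 8.

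Targets of the GATA factors were counted in 3 lists of genes that differ in length. Of 11 cardiac targets, 1 had a Hira-null and 1 a WT peak at day 15, both Tnnc1, the cardiac troponin C gene, and 1 a Hira-null and 2 a WT peak at day 0. Of 10 endoderm targets, 5 had a Hira-null and 7 a WT peak at day 15, and 1 a Hira-null and 2 a WT peak at day 0. The endocytic receptor gene Cubn had 1 Hira-null and 14 WT day 15 peaks, the laminin gene Lamb1 had 2 and 10, the laminin gene Lama1 had 1 and 5, and the endocytic adaptor gene Dab2 had 2 and 5. Of 10 blood targets, Zfpm1 among them, 1 had a Hira-null and 3 a WT peak at day 15, and 0 a Hira-null and 3 a WT peak at day 0. Nfe2, a factor of red cells and platelets, had 3 Hira-null and 5 WT peaks at day 15, and 0 and 3 at day 0. The shares of all genes with a window peak, given above for each list, are the background for these counts, and windows of long genes catch more peaks.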

How the data were processed

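Peak positions and scores were used for the 4 ChIP conditions, with 1 library each, and no file of the input libraries was used here. According to the methods and the submitters' processing notes, Bowtie 1.1.2 aligned the read pairs to mm9, duplicates were removed with Samtools 1.3.1 and peaks were called with MACS 1.4.2. The deposited files give the score of the authors' peak caller and no read counts, so depth is unknown. The control of each call is not given in the sources used here.

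Genes came from GENCODE M1 on NCBIM37, the same assembly, and every peak ended inside its chromosome. Positions are 1-based. Overlap meant at least 1 bp, and window counts and overlaps were checked against bedtools 2.31.1, with 0 of 22367 windows and 0 of 27272 and 22730 WT peaks differing. Where a gene name had several models (Tnnc1, Dab2) the longer was used, Spi1 was not analysed here, and a gene model over 1 Mb across Zfpm1 was not named. Python 3.11.15, numpy 2.4.6, pandas 2.3.3, matplotlib 3.10.9 and samtools 1.23.1 were used. All members and their window peaks were named, with the flank peaks of Gata4 and Gata6, the strongest flank peak of the others in each list, and genes of the partner and target lists, but not of the marker lists, with at least 3 peaks in a list. The members, lists and sequences shown were chosen with earlier results of these data known. Alternatives were a score of at least 100, lists of equal length, other windows, flanks and overlaps, midpoints, peaks of 1 kb and any transcript start. The code was tested on simulated data.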

Additional observations from a re-analysis of the deposited data

Results flagged for a closer look

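The Hira-null minus WT difference in peak number had opposite signs on the 2 days at 2 genes. For Gata4 window peaks it was -1 at day 15 and 1 at day 0. For Zfpm1 flank peaks it was also -1 at day 15 and 1 at day 0. The difference between days was not tested, with 1 library per condition, and each sign rests on a single peak. With lists of equal length neither pattern was found: Gata4 windows held 6 Hira-null and 1 WT peaks at day 15 and 0 and 0 at day 0, and Zfpm1 flanks held 4 and 0 at day 15 and 0 and 0 at day 0.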

How the results depend on the processing

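No paired analysis was possible because each condition has 1 library. Of 148 values recomputed under 11 alternatives, 99 stayed within 1.5 times the reported one. These include values that were 0 both as reported and under the alternative, where no peak was there to move. The order of the genotypes at day 15 turned round with lists of equal length, where Hira-null minus WT window peaks were 3 over all members, against -11 as reported, and 5 at Gata4, against -1. That setting keeps the whole Hira-null day 15 list and drops WT day 15 peaks under a score of 126. With it, window peaks numbered 4 in WT day 15, all 4 without a Hira-null peak, and 0 in Hira-null day 0 (0 members, difference from WT 0). In the full WT day 15 list 91.9% of peaks had no Hira-null peak. This share was not computed for lists of equal length or for scores of at least 100. With lists of equal length, flank peaks were 11 in Hira-null and 3 in WT at day 15, so this order turned round too, and 1 in Hira-null and 3 in WT at day 0. Median distances to a peak were then 242 kb in WT day 15, 357 kb in Hira-null day 0 and 213 kb in WT day 0. With a score of at least 100, window peaks numbered 1 in Hira-null day 15 (1 member), 5 in WT day 15 (5 without a Hira-null peak) and 0 in Hira-null day 0 (0 members), and the difference was -4 at day 15 and 0 at day 0. Flank peaks were 1, 10, 1 and 3 in Hira-null day 15, WT day 15, Hira-null day 0 and WT day 0, and the median distance was 108 kb in WT day 15 and 213 kb in WT day 0. With the window from 20 kb upstream to 5 kb downstream, 4 members had a Hira-null day 15 peak and 1 a WT day 0 peak, which was its 1 window peak and had no Hira-null peak, so the day 0 difference was 0. In the whole WT day 0 list 72.7% of peaks had none. Flanks of 50 kb held 5, 19, 1 and 5 peaks and flanks of 200 kb held 20, 49, 11 and 27, in the list order above. By the nearest start of any transcript, the median distance was 81.3 kb in Hira-null day 15 and 30.9 kb in WT day 0. Without replicates and read depth, absence of a peak means only that none passed the caller's threshold in that library.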
